A study of Mus musculus with 5 samples.

Results

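The 2 ends of the mouse autosomes were examined in whole-genome bisulfite sequencing (WGBS) of leukemic blasts. The genome was cut into tiles of 5 kb, and a tile was kept when every library had at least 20 calls of CpG cytosines in it. A centromeric end was the 3 Mb that follow the first CpG listed for a chromosome, and a telomeric end the 3 Mb that precede the last. This gave 10502 centromeric and 10933 telomeric tiles, together 21435 of 461199 autosomal tiles (4.65%), and the other 439764 tiles form the interior. The choice used position and coverage but no methylation value.

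The 5 libraries came from acute myeloid leukemia (AML) blasts of bone marrow, with the strain given as C57BL/6 in the labels. All carried Cebpa-/p30, that is, a deleted *Cebpa* allele beside an allele that makes only the short p30 form of this myeloid transcription factor. *Tet2*, whose product oxidizes 5-methylcytosine as a step of demethylation, was intact in 2 libraries (Tet2+/+, numbers 23 and 24) and deleted in 3 (Tet2-/-, numbers 5, 7 and 8). Per the study's methods the libraries are separate mice, and the recipients were adult females of a congenic C57BL/6J.SJL strain. According to the study's methods the floxed alleles were deleted by Mx1-Cre, which acts in blood cells and other tissues that respond to interferon, after marrow had been transplanted into irradiated recipients. Blasts were sorted as live donor cells without T cell, B cell and erythroid markers, so that a shift in the mix of sorted cells and a shift of methylation within cells cannot be told apart. The files hold no expression values, so that the cell type was not checked against markers. The deletion could be checked: the coding part of the last *Tet2* exon (GRCm38, chr3:133466740-133468190, minus strand, 27 CpG dyads) had 83 and 111 calls in the Tet2+/+ libraries and 0 calls in each of the 3 Tet2-/- libraries, while the largest other exon had 253 to 408 calls in every library. Autosomal depth was 2.999 to 5.27 calls per CpG dyad (a CpG with both strands summed), and the autosomal level was 67.3% and 62.3% in libraries 23 and 24 and 70.9%, 74.8% and 68.4% in libraries 5, 7 and 8.

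Mouse autosomes are telocentric: the centromere lies close to one end of the chromosome, and the telomere of the long arm forms the other. Next to the centromere lie large blocks of major satellite DNA, which is densely methylated and packed into heterochromatin marked by methylated histone H3 lysine 9 and bound by HP1 proteins. Telomeres consist of repeats of a hexamer that holds no CpG, covered by the shelterin proteins, and the sequence beside them (the subtelomere) is methylated by the DNA methyltransferases in mouse cells. The satellite blocks are not part of the assembled chromosomes, so that the centromeric end here is the first assembled, mappable sequence beside them.

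The sequences below are shown to let the kind of DNA behind these values be seen. They are 4 stretches of 150 bases from tiles with large differences between the groups, with each CpG in capitals. In its tile each has the most CpGs outside annotated exons, among stretches with at least 10 calls in every library. The stretches near *Gstp3* (chr19:4069421-4069570) and on chromosome 5 (chr5:3193571-3193720) lie in intergenic DNA of centromeric ends, the latter in a tile 146485 bp from its nearest coding gene, *Cdk6*. Those in *Fignl2* (chr15:101054571-101054720) and beside *Faap100* and *Fscn2* (chr11:120365291-120365440) lie in telomeric ends, all on the plus strand of GRCm38.

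near Gstp3: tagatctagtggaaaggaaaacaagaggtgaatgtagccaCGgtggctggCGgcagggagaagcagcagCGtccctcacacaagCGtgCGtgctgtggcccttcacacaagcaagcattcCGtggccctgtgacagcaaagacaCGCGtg
chromosome 5 intergenic: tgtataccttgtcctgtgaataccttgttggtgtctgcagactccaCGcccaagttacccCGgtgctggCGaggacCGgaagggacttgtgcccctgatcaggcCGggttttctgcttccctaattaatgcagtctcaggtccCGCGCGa
Fignl2: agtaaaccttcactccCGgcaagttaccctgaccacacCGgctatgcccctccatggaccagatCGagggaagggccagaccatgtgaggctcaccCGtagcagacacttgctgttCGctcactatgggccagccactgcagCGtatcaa
Faap100 and Fscn2: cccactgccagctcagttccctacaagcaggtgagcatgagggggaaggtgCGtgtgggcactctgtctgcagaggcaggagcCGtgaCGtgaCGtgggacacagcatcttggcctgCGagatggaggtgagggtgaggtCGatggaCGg

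In these stretches the levels of libraries 23, 24, 5, 7 and 8 were 21.2%, 19.2%, 64.7%, 95.0% and 70.6% near *Gstp3* (8 CpGs) and 14.8%, 2.38%, 58.3%, 78.1% and 88.0% on chromosome 5 (8 CpGs). They were 35.0%, 17.5%, 90.5%, 89.9% and 90.9% in *Fignl2* (6 CpGs) and 52.4%, 84.4%, 100%, 94.2% and 95.1% beside *Faap100* and *Fscn2* (7 CpGs). The 3 Tet2-/- libraries lay above both Tet2+/+ libraries in all 4 stretches. The tiles that hold them were picked for their differences, so that these values are a description.

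The 2 kinds of end differed in what they are made of. Soft-masked repeats made up 38.1% of the centromeric tiles, 31.3% of the telomeric tiles and 32.4% of the interior. Annotated genes covered 48.5%, 53.7% and 49.1%, and the GC content was 42.2%, 43.5% and 42.01%. The number of CpG dyads per tile had a median of 35 at the centromeric ends and 37 at the telomeric ends and in the interior. The telomere hexamer TTAGGG, in at least 2 tandem copies on either strand, occurred in 108 telomeric tiles (0.988%), in 24 centromeric tiles (0.229%) and in 988 interior tiles (0.225%). Telomeric ends were thus richer in genes and in telomere-like repeats and centromeric ends richer in repeats overall. Of the tiles with a CpG, 92.3% at centromeric ends, 96.5% at telomeric ends and 96.3% in the interior passed the minimum of calls. Calls per dyad relative to the autosomal mean of each library were 0.957 to 0.995 at the centromeric ends and 1.04 to 1.06 at the telomeric ends.

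The first question was whether the ends are more or less methylated than the rest of the autosomes. The mean level over centromeric tiles was 70.4% and 66.0% for Tet2+/+ libraries 23 and 24, and reached 73.7%, 78.9% and 70.4% for Tet2-/- libraries 5, 7 and 8. Interior tiles matched to them on the number of CpG dyads had 69.0%, 63.9%, 72.6%, 77.5% and 69.4% in the same order. The centromeric ends were therefore higher than matched tiles in 5 of 5 libraries, by 1.40, 2.10, 1.14, 1.38 and 1.01 percentage points (mean 1.41 ± 0.422, SD, n = 5). A two-sided exact permutation test that flips the signs of the 5 differences gave p = 0.0625, the smallest value that 5 libraries allow. The libraries share the same tiles, so that this test, here and below, covers the spread between libraries and not that between stretches of chromosome. Interior bins of 1 Mb gave the same p at 3 to 10 Mb from the last listed CpG. Over the 19 autosomes the mean centromeric excess was 0.93 points, with an SD of 3.82 between chromosomes. With tiles weighted by their calls the mean excess was 0.74 points.

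At the telomeric ends the mean level was 67.7%, 62.8%, 71.7%, 76.5% and 68.9% in libraries 23, 24, 5, 7 and 8. It was lower than in matched tiles by 0.80, 0.43, 0.36 and 0.36 points in the first 4 of these libraries and was at -0.0014 points in library 8 (mean -0.39 ± 0.286, SD, n = 5, exact p = 0.0625). This small deficit rests on the width of the window and on chromosome 15: it was 0.97 points above matched tiles with a window of 1 Mb, 0.12 above with 5 Mb, -0.03 without chromosome 15 and -1.62 with tiles weighted by their calls. The centromeric ends exceeded the telomeric ends, each relative to matched tiles, by 1.80 points (exact p = 0.0625, in 5 of 5 libraries), but by only 0.09 points with windows of 1 Mb and 0.98 with 5 Mb (exact permutation p = 0.125).

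**Figure D1:**
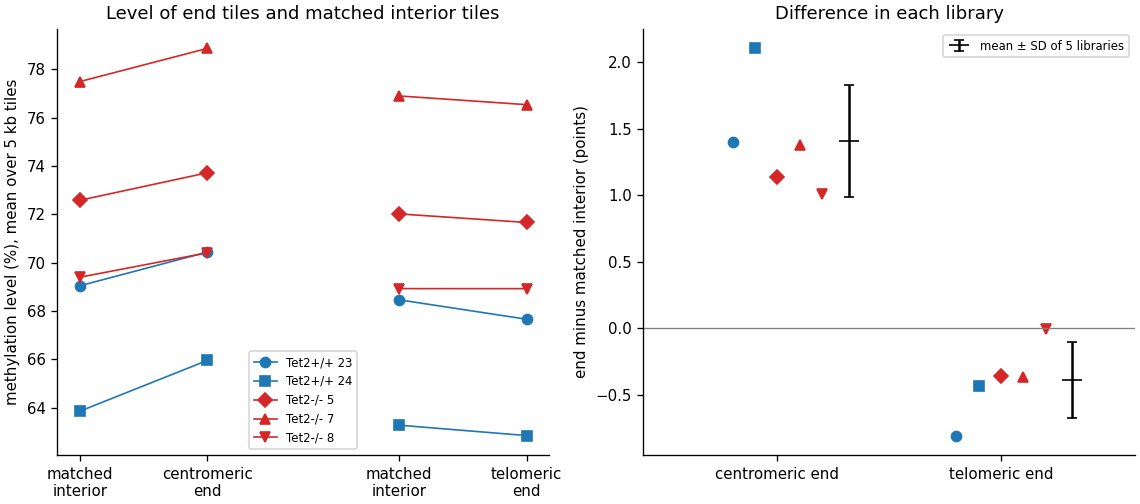
Mean methylation level (%) over 5 kb tiles of each autosomal end and of interior tiles with the same numbers of CpGs (left, 1 line per library), and their difference in percentage points (right, 1 symbol per library, with the mean ± SD of the 5 libraries). All 5 libraries lie above 0 at the centromeric end, with a mean of 1.41 points, and close to or below 0 at the telomeric end, with a mean of -0.39 points.

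Centromeric ends held a larger share of highly methylated tiles than matched tiles did. Tiles with a level over 80% made up 31.2%, 24.9%, 41.6%, 57.6% and 32.3% of centromeric tiles in libraries 23, 24, 5, 7 and 8, against 25.1%, 19.7%, 35.2%, 51.0% and 27.4% of matched tiles. The share was higher than in matched tiles in every library. At the telomeric ends the same share was 25.4%, 19.5%, 35.1%, 50.9% and 29.2%, against 24.96%, 19.6%, 35.0%, 50.6% and 27.4%. Tiles under 20% were rare everywhere, with 1.22% to 1.94% of centromeric and 1.72% to 2.70% of telomeric tiles. Of matched tiles they made up 1.11% to 1.78% and 1.43% to 2.26%. Their share too was higher than in matched tiles in every library, at both ends. Over the mean of the 5 libraries, the central 80% of tiles spanned 52.8% to 89.5% at centromeric ends (median 74.4%), 49.1% to 88.8% at telomeric ends (median 71.8%) and 52.9% to 88.8% in the interior (median 72.2%). Single tiles thus varied far more than the ends differed as a whole.

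The departure from the interior varied with CpG number at both ends. Tiles of 1 to 20 dyads were 1.36 points above interior tiles of the same CpG numbers at centromeric ends and 1.64 above at telomeric ends (mean of 5 libraries, all 5 above). Tiles of 21 to 40 dyads, the most frequent class, were 1.996 and 0.68 above, again in all 5 libraries. Tiles of 41 to 80 dyads were 1.13 above at centromeric ends (from 0.70 to 1.88) and at -2.04 at telomeric ends. Those of over 80 dyads were at -0.85 (libraries from -1.84 to 0.48) and at -2.69 (from -2.93 to -2.41). Telomeric tiles of 41 dyads or more thus lay below the interior in every library. By repeat share, telomeric tiles in the lowest quartile of soft-masked sequence were at -1.71 points and those in the highest quartile at 0.43, whereas centromeric tiles were above the interior in all 4 quartiles, by 0.74 to 2.34 points. Matching on repeat share as well as on CpG number, an alternative added after the data had been seen, gave 1.35 at centromeric and -0.37 at telomeric ends.

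Along the chromosome the level did not fall or rise smoothly towards the end. In 12 bins of 250 kb the centromeric ends ranged from -0.94 to 3.21 points relative to matched tiles, and in 10 bins all 5 libraries were above. The peak of 3.21 ± 0.33 (SD, n = 5) lay at 1.75 to 2 Mb from the first CpG, and the outermost 0.25 Mb, where 47.2% of the sequence is repeats, was at -0.43 ± 0.58. The telomeric side was steeper. Its outermost 0.25 Mb was 2.94 ± 1.15 points above matched tiles, the next 0.25 Mb 1.54 ± 0.80, and the values then fell to -2.76 ± 0.93 at 2.75 to 3 Mb, before the tiles from 3 to 9 Mb turned to 0.54 to 1.64 above. The tiles from 9 to 10 Mb were again below matched tiles in all 5 libraries, at -1.33 (from -2.74 to -0.76).

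The outermost 0.5 Mb of the telomeric ends (1719 tiles) therefore stood apart from the remaining 2.5 Mb. It was above matched tiles by 1.98, 3.88, 1.69, 1.42 and 2.24 points in libraries 23, 24, 5, 7 and 8, whereas the tiles at 0.5 to 3 Mb were at -1.32, -1.23, -0.74, -0.69 and -0.42. The sets of 5 values do not overlap. Within it the outermost 0.1 Mb (344 tiles) was 3.59 ± 1.35 points above, and 30 of these tiles held the doubled telomere hexamer. Repeats made up 42.1% of the outermost 0.5 Mb and 29.3% of the rest, coverage relative to the library mean was 0.915 and 1.07, and the number of CpG dyads per tile was 36.2 and 45.7. The part of these differences in the result was not tested. These boundaries were set after the bins had been seen.

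**Figure D2:**
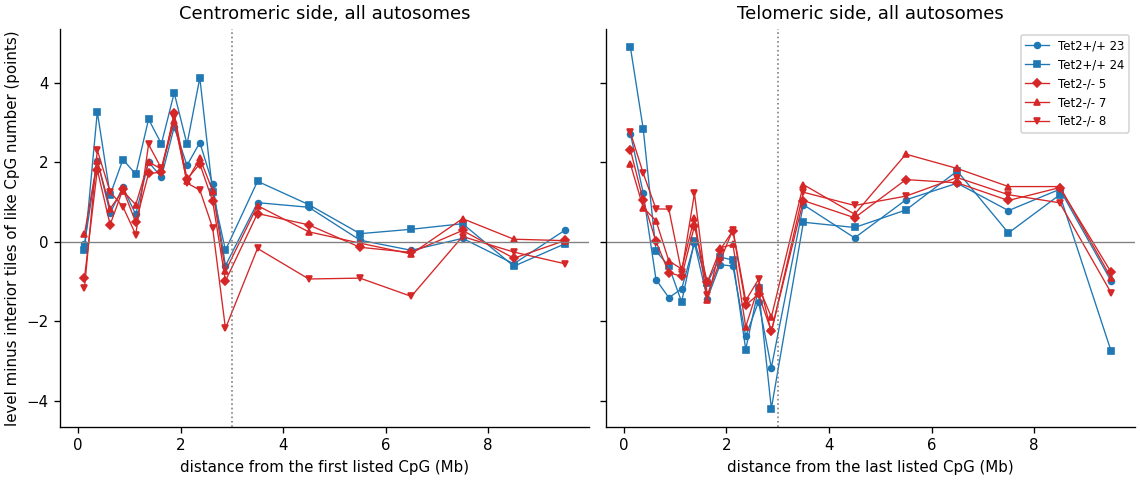
Level minus that of interior tiles of like CpG number (percentage points, mean over the tiles of all 19 autosomes) against distance in Mb from the first listed CpG (left) and the last listed CpG (right), 1 line per library, with a dotted line at the 3 Mb limit of the ends. The telomeric side starts at 2.94 points above and reaches -2.76 just inside the limit, while the centromeric side is above 0 in 10 of its 12 bins.

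Telomeric tiles that hold the doubled hexamer were 1.88 points above matched tiles (libraries from 0.96 to 3.10, 108 tiles), against -0.41 for the 10825 telomeric tiles without it. Of the 108, 45 lay in the outermost 0.5 Mb, which is itself above matched tiles. The 24 centromeric tiles with the hexamer were at 0.32 (from -1.09 to 1.69) and the 988 interior tiles at 0.70 (from 0.53 to 0.89). The hexamer holds no CpG, so that the level is that of the DNA around it.

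Single chromosome ends departed from matched tiles by more than the ends as a whole. At the centromeric side, 10 of 19 autosomes were above matched tiles in all 5 libraries, 6 were below in all 5 and 3 were mixed. The SD between chromosomes was 3.82 points and the median SD between libraries of a chromosome was 0.87. At the telomeric side 7 autosomes were above in all 5 libraries, 8 below and 4 mixed, with an SD of 2.77 between chromosomes and a median SD of 0.80 between libraries.

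The highest centromeric ends were those of chromosomes 18, 5 and 15. Chromosome 18 was above matched tiles by 6.55, 8.89, 7.40, 8.28 and 7.18 points in libraries 23, 24, 5, 7 and 8 (mean 7.66 ± 0.93, SD, n = 5), chromosome 5 by 5.32 ± 0.88 and chromosome 15 by 4.18 ± 1.20. Chromosome 15 was followed at once by chromosome 10 with 4.15 ± 0.90, a gap within the spread of libraries. The lowest were chromosome 14 at -8.14 ± 1.51, chromosome 3 at -4.31 ± 1.21 and chromosome 1 at -3.41 ± 0.61. The centromeric end of chromosome 14 passed the minimum of calls in only 105 of 600 tiles, its coverage was 0.340 to 0.374 of the library mean and 56.3% of it was repeats. On chromosome 3, 54.5% was repeats and 14.8% lay in genes. The interiors of these 6 chromosomes differed from matched tiles by -0.68 to 1.09 points. Each interior is a mean over far more tiles than an end, and interior blocks of 3 Mb were not compared.

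At the telomeric side chromosome 11 was highest, by 3.81, 5.10, 3.32, 3.60 and 4.87 points (mean 4.14 ± 0.80), followed by chromosome 16 with 3.05 ± 1.08 and chromosome 5 with 2.52 ± 0.28. Chromosome 15 was lowest at -6.78, -7.29, -5.57, -5.53 and -3.71 points (mean -5.78 ± 1.39), then chromosome 17 at -4.67 ± 0.43 and chromosome 3 at -3.71 ± 0.55. The next, chromosome 2 at -3.62 ± 0.90, did not differ from chromosome 3 beyond the spread. The telomeric end of chromosome 15 had 1.19 to 1.61 times the mean coverage, with 1.36 and 1.19 in libraries 23 and 24 and 1.597, 1.594 and 1.609 in libraries 5, 7 and 8. At the centromeric end of chromosome 15 coverage was 1.12 and 0.93 in libraries 23 and 24. In libraries 5, 7 and 8 it was 1.21, 1.13 and 1.24 there. The part of coverage in the level of these ends was not tested. Chromosome 17 was the poorest in genes, with 5.30% of the tiles' sequence in genes. Chromosome 3 was among the lowest at both of its ends and chromosome 5 among the highest at both.

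**Figure D3:**
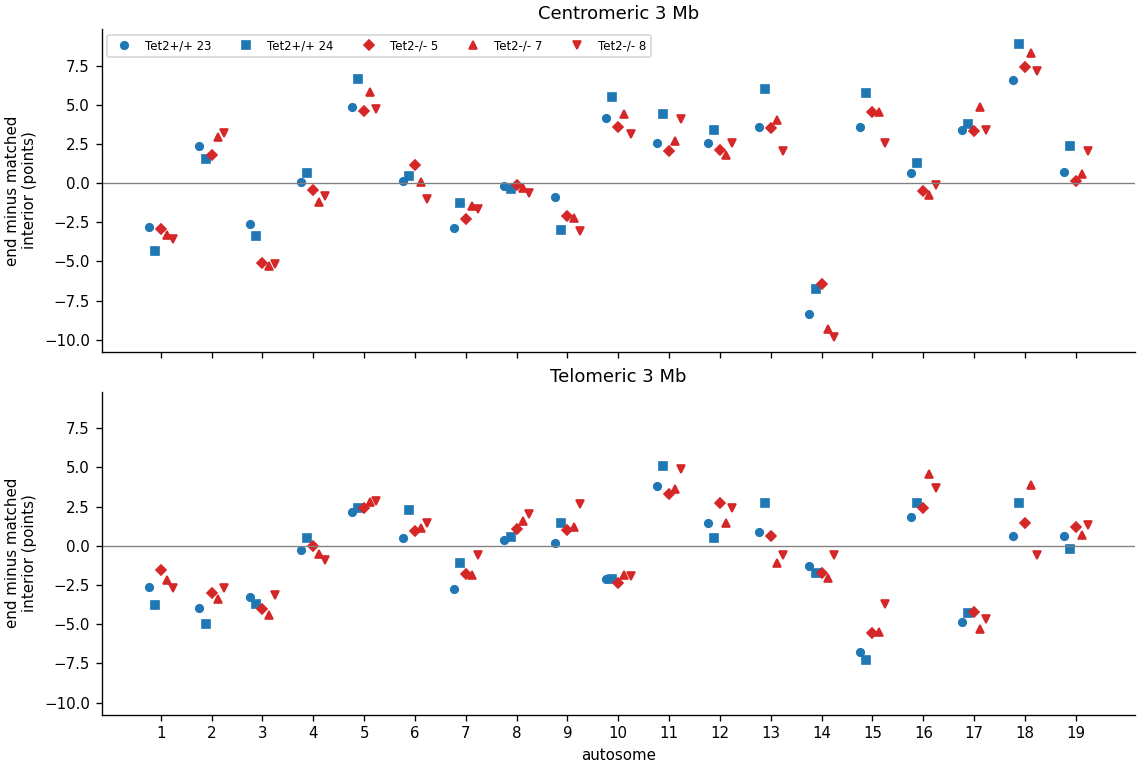
Level of each centromeric (top) and telomeric (bottom) end minus matched interior tiles in percentage points, for the 19 autosomes, with 1 symbol per library. The 5 libraries of a chromosome stay close together while chromosomes range from -8.14 to 7.66 points at the centromeric side and from -5.78 to 4.14 at the telomeric side.

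The second question was how the ends differ between blasts with and without *Tet2*. At the centromeric ends the mean level was 68.2% ± 3.17 (SD, n = 2) in Tet2+/+ and 74.3% ± 4.26 (n = 3) in Tet2-/- libraries, a difference of 6.13 points (exact permutation test, two-sided, p = 0.3). The groups overlap there, since libraries 23 and 8 both round to 70.4% and library 8 is the lower of the pair. At the telomeric ends the level was 65.3% ± 3.40 and 72.4% ± 3.85, a difference of 7.12 points (exact p = 0.2), and the groups do not overlap. With 2 and 3 libraries the smallest p that this test can give is 0.1, so that neither difference could pass 0.05. The size depends on single libraries: without library 24 the differences were 3.89 and 4.71 points, without library 7 they were 3.87 and 5.04, and over all 5 omissions they ranged from 3.87 to 8.38 and from 4.71 to 9.53.

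The gain was of a size with that of the rest of the genome. Matched interior tiles differed by 6.71 points for the centromeric and 6.74 for the telomeric ends. Relative to them the centromeric ends gained less, with an excess over matched tiles of 1.75 ± 0.50 points in Tet2+/+ and 1.18 ± 0.18 in Tet2-/- libraries, a difference of -0.57 (exact permutation p = 0.1, the smallest possible), and the groups did not overlap. The telomeric ends gained more, from -0.62 ± 0.26 to -0.24 ± 0.21, a difference of 0.38 (exact p = 0.1). Leaving out each library in turn gave -0.92 to -0.22 and 0.19 to 0.56. With a window of 1 Mb the telomeric value turned to -0.07, weighted by calls it was 0.18 (exact permutation p = 0.4) and without chromosome 15 it was 0.28 (exact permutation p = 0.3). The centromeric value was -1.07 weighted by calls (exact permutation p = 0.1), -0.44 with 1 Mb (exact p = 0.3) and -0.70 with 5 Mb (exact p = 0.2). It was -0.55 without tiles of unusual coverage and -0.46 with matching on repeat share as well (exact permutation p = 0.2 for each). All Tet2-/- libraries lay above both Tet2+/+ libraries in 34.4% of centromeric and 39.7% of telomeric tiles, against 37.4% of all autosomal tiles. They lay below in 1.28% and 1.19%, against 1.24%.

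All 19 autosomes were higher in the Tet2-/- group at each end, by 4.21 to 7.77 points at the centromeric side and by 4.29 to 9.04 at the telomeric side. The groups did not overlap on 9 and 14 chromosomes. The libraries differ in their genome-wide level, so that these 19 values are not separate evidence. Interiors of single chromosomes were not counted in this way, so that the 2 counts have no background. In matched interior tiles libraries 23 and 8 lay close together, at 69.0% and 69.4% for the centromeric ends. For the telomeric ends they were at 68.5% and 68.9%. The largest gain was at the telomeric end of chromosome 15, with 60.9% and 55.7% in Tet2+/+ and 66.0%, 70.6% and 65.4% in Tet2-/- libraries, where coverage also differed between the groups. The smallest was at the centromeric end of chromosome 3, with 64.3%, 57.5%, 64.8%, 69.6% and 60.9%. Within the telomeric ends the outermost 0.5 Mb gained 5.34 points (exact p = 0.3) and the remainder 7.45 (exact p = 0.2).

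By CpG number the gain was largest in tiles of 41 to 80 dyads at both ends and in the interior, with 6.89 points at centromeric ends, 8.04 at telomeric ends and 7.69 in the interior. In tiles of over 80 dyads it was 4.30, 6.09 and 6.16 points (exact permutation p = 0.1 for each). In these CpG-rich tiles the Tet2+/+ mean was 51.4% ± 2.02 at centromeric and 47.9% ± 2.24 at telomeric ends, and the Tet2-/- mean 55.7% ± 1.84 and 54.0% ± 1.48, with no overlap of the groups. By repeat share the gain at centromeric ends went from 6.70 points in the quartile with the fewest repeats to 5.72 in that with the most, and at telomeric ends from 7.65 to 6.25. The interior went from 7.29 to 5.96.

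**Figure D4:**
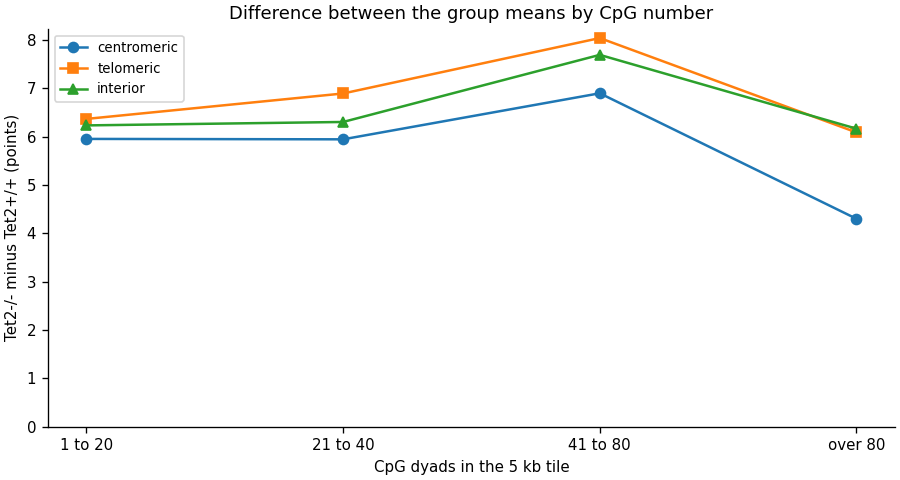
Difference between the mean methylation levels of the 3 Tet2-/- and the 2 Tet2+/+ libraries (percentage points) in tiles grouped by their number of CpG dyads, for centromeric ends, telomeric ends and the interior. All differences are above 0, and each line peaks at 41 to 80 dyads, with 6.89, 8.04 and 7.69 points.

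Tested one by one over the whole table (edgeR's quasi-likelihood test, Benjamini-Hochberg over 461199 tiles), 252 centromeric tiles were higher in Tet2-/- blasts (2.40%) and 426 telomeric tiles (3.90%), against 3.47% of all autosomal tiles. Lower were 3 centromeric tiles (0.029%) and 0 telomeric tiles, against 0.023% of all tiles. Of telomeric tiles, 13 were lower at an unadjusted p under 0.05 (0.119%, against 0.231% of all tiles). Limma and edgeR's likelihood ratio test also called 0 telomeric tiles lower, against 0.010% and 0.028% of all tiles. With thinning to the shallowest library, with a window of 5 Mb and without library 7 or 8, 1 telomeric tile was lower. Its share was 0.005% to 0.009%, against 0.014% to 0.053% of all tiles. The telomeric share of higher tiles is near that of the genome, and the centromeric share is lower. The centromeric share was below that of the genome with windows of 1, 3 and 5 Mb (1.90%, 2.40% and 2.28%). The telomeric share was below it with 1 Mb (2.42%) and above it with 3 and 5 Mb (3.90% and 5.41%). These calls depend on single libraries, most of all on library 24, without which 6 centromeric and 12 telomeric tiles passed in either direction (0.057% and 0.109%, against 0.061% of all tiles). Without library 23, 74 and 158 passed (0.704% and 1.44%, against 1.17%), and without library 5, 84 and 186 (0.7998% and 1.70%, against 1.44%). Without library 7, 209 and 390 passed (1.99% and 3.57%, against 3.002%), and without library 8, 374 and 526 (3.53% and 4.76%, against 4.33%). The ends thus moved with the genome as a whole in each omission. Leaving out 1 Tet2+/+ library leaves 1 in that group, which is then assumed to vary like the Tet2-/- libraries. Limma, in which the spread of each tile itself counts, called 29 and 61 tiles (0.276% and 0.558%, against 0.521% of all tiles). Once the median of every library had been subtracted it called 1 and 1 (0.00952% and 0.00915%, against 0.045% of all tiles).

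The calls were spread unevenly over chromosomes. At the telomeric side 50 tiles of chromosome 15 (8.59%), 43 of chromosome 5 (7.26%), 40 of chromosome 9 (7.08%), 42 of chromosome 16 (7.05%) and 42 of chromosome 11 (7.01%) rose, against 0 of 547 on chromosome 17 and 2 of 554 on chromosome 3. At the centromeric side chromosomes 2 and 17 had 31 each (5.20% and 5.17%) and chromosome 14 had 0 of 105. Of all autosomal tiles 3.47% rose, so that few calls would fall in 105 tiles in any case. The shares in the interiors of single chromosomes were not counted. Chromosomes 3 and 17 have few CpGs per telomeric tile (26.9 and 23.2) and chromosomes 11 and 15 many (70.3 and 59.0), but chromosome 4, with the most (75.1), had 21 calls (3.57%), and chromosome 16 had 43.7. The part of CpG number in the counts was not tested.

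The tiles with the largest differences among those past the test whose groups do not overlap were taken in each end and direction. They were chosen by that contrast, so that their levels describe them. Of the 5 at the telomeric ends, the tile in *Fignl2*, a gene of the fidgetin family of microtubule-severing ATPases, had the most CpGs (chr15:101050001-101055000, GRCm38, over exons and UTR, 301 dyads, 643 to 1998 calls). Its level was 28.3% and 16.0% in Tet2+/+ and 86.6%, 53.6% and 84.3% in Tet2-/- libraries (22.2% ± 8.71 and 74.8% ± 18.5, edgeR adjusted p = 3.97e-32). Kb 4 of the tile, with 156 CpGs, went from 14.7% and 8.32% to 93.4%, 38.2% and 96.3%. Library 7, which has the highest level of the genome as a whole, was thus the lowest of the 3 Tet2-/- libraries in this tile. The tile of *Faap100*, which encodes a subunit of the Fanconi anemia core complex, and *Fscn2*, which encodes an actin-bundling fascin (chr11:120365001-120370000, 89 dyads), was at 42.2%, 41.2%, 76.96%, 80.7% and 77.8% (edgeR adjusted p = 2.82e-07). The change there lay mostly in kb 3, with 22.2% and 11.3% against 86.6%, 93.2% and 85.6%. Both tiles passed edgeR in all 5 omissions of a library, and neither passed limma after centring (adjusted p = 0.11 and 0.077).

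The other 3 telomeric tiles were in an intron of *Macc1*, known as a regulator of the hepatocyte growth factor receptor gene (chr12:119415001-119420000, 11 dyads), in intergenic DNA 18671 bp from *Csnk1d*, a casein kinase (chr11:121010001-121015000, 62 dyads), and in the lincRNA 1600002D24Rik (chr16:95895001-95900000, 42 dyads). The first rose from 51.3% and 25% to 72.6%, 95.1% and 69.0%. The second rose from 48.3% and 28.6% to 67.0%, 90.4% and 68.5%. The third rose from 39.5% and 29.1% to 60.8%, 83.3% and 67.8%. None of the 3 passed edgeR without library 24.

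At the centromeric ends the largest difference of this kind was in 13 CpGs on chromosome 18, 35029 bp from *Zfp438*, at 30.8% and 39.6% in Tet2+/+ against 78.8%, 82.3% and 73.7% in Tet2-/- libraries (edgeR adjusted p = 4.64e-04, and 0.059 without library 23). A tile on chromosome 19 (chr19:4065001-4070000, 120 dyads, 5432 bp from *Gstp3*, a glutathione transferase gene) was at 34.8%, 43.2%, 75.9%, 91.3% and 68.3% (adjusted p = 2.43e-05), and passed in all 5 omissions of a library. The change lay in its outer parts, with 20.2% and 14.9% against 71.0%, 89.8% and 61.6% in kb 5, while kb 3 was at 80.6% or more in every library. A tile on chromosome 5 (chr5:3190001-3195000, 83.7% repeats, 146485 bp from *Cdk6*), 190 kb from the first CpG, was at 42.5%, 31.1%, 64.0%, 86.1% and 76.0%. Kb 4 went from 14.7% and 4.44% to 60.0%, 87.1% and 90.7%, whereas kb 1 was at 69.7% and 56.7% against 50%, 76.2% and 47.8%. The tile as a whole did not pass without library 24.

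Tiles over *Casp1*, an inflammasome protease (chr9:5300001-5305000, 14 dyads), and *Akap12*, a scaffold protein of protein kinase A (chr10:4350001-4355000, 101 dyads), also rose. By limma their adjusted p was 0.018 and 0.0075. After centring it was 0.26 and 0.084, so that neither passed. *Casp1* was at 52.6%, 41.2%, 61.2%, 95.0% and 100%, over only 26 to 49 calls, and failed the test without any 1 of libraries 23, 24, 7 or 8. *Akap12* was at 64.8%, 36.0%, 83.6%, 93.2% and 82.7% (adjusted p = 7.94e-10, and 0.079 without library 24), with most of the change in its last kb (46.2% and 12.4% against 79.6%, 94.2% and 87.4%).

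Only 3 centromeric tiles passed the test as lower. An intronic tile of *Zfhx4*, a zinc finger homeobox gene (chr3:5305001-5310000, 13 dyads), was at 85.7%, 92.3%, 66.0%, 53.8% and 44.4%. A tile of *Syne1*, which encodes the nuclear envelope protein nesprin-1 (chr10:5190001-5195000, 61 dyads), was at 62.3%, 82.6%, 45.3%, 47.1% and 50.6%. In it 4 of 5 kb were at 76.6% or more in every library, and kb 5 was at 31.6% and 82.2% against 2.26%, 13.6% and 1.00%. The remaining tile (chr11:4440001-4445000), named because it is the only other that fell, overlapped between the groups, at 89.2%, 82.6%, 57.7%, 91.5% and 40.7%. *Zfhx4*, over only 26 to 50 calls, lost the call without any 1 of libraries 23, 24 or 8. *Syne1* lost it without library 24 or 5, and did not pass limma (adjusted p = 0.11). *Zfhx4* was the 1 centromeric tile that passed limma after centring (adjusted p = 0.031).

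**Figure D5:**
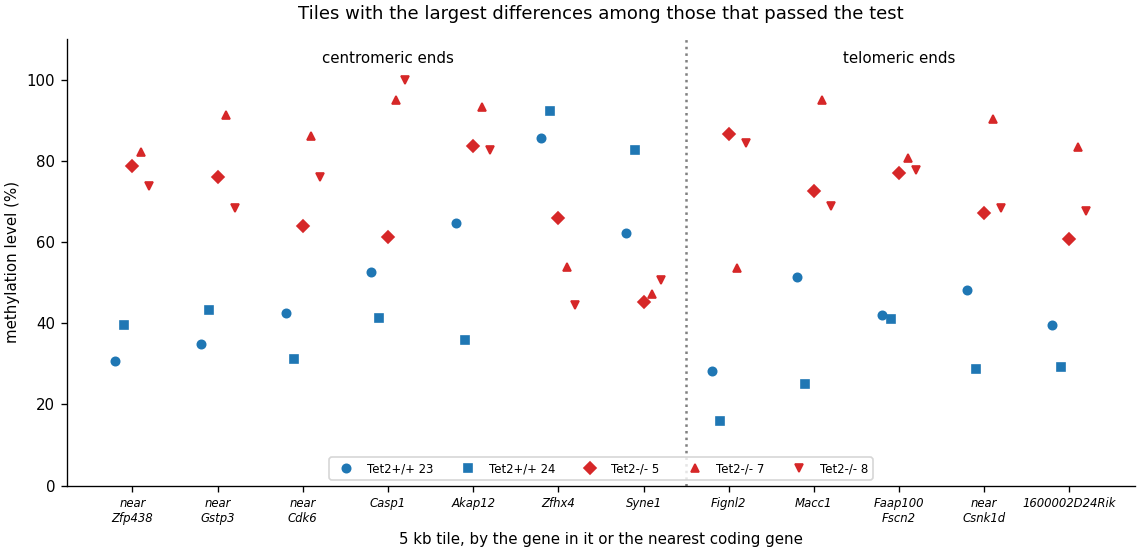
Methylation level (%) of the tiles with the largest differences, by library (blue Tet2+/+, red Tet2-/-), labelled by the gene they lie in or the nearest coding gene, which can be far off (146485 bp for *Cdk6*), with centromeric ends left and telomeric ends right of the dotted line. The groups do not overlap in any of them by the choice, and in *Fignl2* library 7 lies at 53.6%, below the other Tet2-/- libraries.

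Promoters at the ends were tested the same way, as windows that reach 1000 bp to either side of the start of a protein-coding gene. Of 636 and 741 such genes, 556 centromeric and 662 telomeric promoters had enough calls. Their mean level was 25.6%, 24.1%, 28.3%, 29.7% and 28.2% at centromeric ends in libraries 23, 24, 5, 7 and 8, and 28.3%, 26.6%, 31.7%, 33.7% and 31.8% at telomeric ends. The group means rose by 3.88 and 4.95 points (exact permutation p = 0.1 for each, the smallest possible), against 4.72 in the interior. Past edgeR's test, 7 of the 1218 were higher in Tet2-/- blasts (0.575%), against 1.05% of all promoters, and 0 were lower, against 0.016%. Of the 1218, 10 were lower at an unadjusted p under 0.05 (0.821%, against 0.545% of all promoters). The likelihood ratio test called 4 lower (0.328%, against 0.128% of all) and limma 0 (against 0.005% of all). In either direction the likelihood ratio test called 79 promoters at the ends (6.49%, against 5.73% of all), so that the share was above the background by that test and below it by edgeR's quasi-likelihood test (0.575%, against 1.07%). Limma called 3 (0.246%, against 0.422%). Without library 7 edgeR's quasi-likelihood test called 5 (0.411%, against 0.395% of all), 1 of them lower. The 7 calls became 0 without library 23 (against 0.080% of all promoters), 0 without library 24 (against 0 of all), 17 without library 5 (1.40%, against 1.604%) and 4 without library 8 (0.325%, against 0.374%).

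Among the promoters with the largest differences were those of Gm42791, *Lrrc8e*, *Cdcp1* and *Penk*. Gm42791, a predicted gene on chromosome 5, was at 16.7%, 17.0%, 50%, 64.7% and 57.2%. *Penk*, which encodes the opioid precursor proenkephalin, was at 4.24%, 4.80%, 22.6%, 20.1% and 25.8% (adjusted p = 0.011). *Lrrc8e*, a subunit of the volume-regulated anion channel, was at 62.3%, 44.2%, 81.4%, 88.5% and 84.6%, and *Cdcp1*, a transmembrane glycoprotein, at 60.6%, 47.7%, 82.4%, 83.4% and 80.1% (adjusted p = 0.043 for both). Each is a description, as the promoters were chosen by this contrast. None of these 4 passed without library 23 or without library 24. *Cdcp1* passed in none of the 5 omissions of a library and *Lrrc8e* only in that of library 5, and neither passed limma (adjusted p = 0.074 and 0.061). Gm42791 and *Penk* passed in the omissions of libraries 5, 7 and 8 and by limma (adjusted p = 0.028 for both). RefSeq's table (GRCm38.p6) matched 2 of them, and the 250 bases before their starts are shown 5′ to 3′ in the direction of the gene, CpGs in capitals, for *Lrrc8e* (chr8:4226577-4226826, plus strand) and *Cdcp1* (chr9:123216039-123216288, minus strand).

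Lrrc8e: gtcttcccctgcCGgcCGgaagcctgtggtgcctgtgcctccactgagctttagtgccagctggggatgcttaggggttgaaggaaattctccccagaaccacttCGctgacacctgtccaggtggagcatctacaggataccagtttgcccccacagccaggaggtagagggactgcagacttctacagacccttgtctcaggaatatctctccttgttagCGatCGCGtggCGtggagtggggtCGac
Cdcp1: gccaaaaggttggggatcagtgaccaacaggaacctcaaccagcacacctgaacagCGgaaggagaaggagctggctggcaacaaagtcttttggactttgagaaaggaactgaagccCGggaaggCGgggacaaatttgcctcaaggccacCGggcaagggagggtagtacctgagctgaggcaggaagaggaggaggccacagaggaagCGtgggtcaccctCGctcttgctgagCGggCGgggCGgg

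In these bases *Lrrc8e* (8 CpGs) was at 37.1% and 26.5% in Tet2+/+ and 83.3%, 92.6% and 86.7% in Tet2-/- libraries, and *Cdcp1* (9 CpGs) at 16.2% and 38.1% against 55.6%, 67.2% and 60.6%. The part before the start was lower in the Tet2+/+ libraries than the promoter as a whole, and the groups lay further apart there in both genes. In *Cdcp1* the Tet2-/- mean was lower there too, at 61.1% against 82.0% for the whole promoter, over 21 to 67 calls.

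Promoters of gene families that often lie in clusters made up a small share of those tested, also in the interior. Tested promoters of olfactory and vomeronasal receptors held a median of 7 to 11 CpG dyads, against 70 or 71 for all tested promoters. The part of the minimum of calls in these shares was not tested. Olfactory receptor promoters numbered 1 at centromeric and 7 at telomeric ends (0.18% and 1.06%, against 2.03% in the interior). Vomeronasal receptor promoters numbered 1 and 2 (0.18% and 0.30%, against 0.43%). Promoters of zinc finger genes with a Zfp symbol numbered 12 and 9 (2.16% and 1.36%, against 1.98%). The 7 telomeric olfactory receptor promoters had a mean level of 49.1%, 51.3%, 67.2%, 65.7% and 57.5% in libraries 23, 24, 5, 7 and 8. The 12 centromeric zinc finger promoters had 9.32%, 6.01%, 9.35%, 11.9% and 11.8%, and the 9 telomeric ones 16.6%, 10.8%, 18.6%, 19.02% and 21.01%.

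Promoters of 31 genes of heterochromatin, DNA methylation and telomere maintenance were listed wherever they lie, and 28 autosomal ones could be tested. None passed edgeR's or limma's test, against 1.07% of all promoters by edgeR. The likelihood ratio test called 1 of the 28, against 5.73% of all, and 2 had an unadjusted p under 0.05, against 18.5%. Their median difference was 0.45 points, against 2.25 over all promoters, and 20 had a mean level under 10%. The maintenance methyltransferase *Dnmt1* (89.8%, 81.5%, 89.3%, 92.9% and 79.8%) and the heterochromatin corepressor *Trim28* (87.3%, 79.6%, 85.4%, 92.9% and 90%) were high, over the 28 and 15 CpGs in their windows. These windows lie at the outermost annotated start of each gene, and other starts were not measured. The telomerase gene *Tert* was at 44.8%, 44.8%, 52.4%, 43.2% and 53.3%. The 2 with a low unadjusted p were *Stn1*, a subunit of the telomere replication complex CST (22.7%, 24.1%, 13.2%, 11.2% and 7.05%, adjusted p = 0.11), and *Zbtb24*, mutated in an immunodeficiency with pericentromeric hypomethylation (12.3%, 4.62%, 12.4%, 21.4% and 23.8%, adjusted p = 0.16). Of the list, 6 genes lie in the end windows themselves. The de novo methyltransferase *Dnmt3a* was at 17.2%, 13.0%, 17.5%, 14.7% and 12.2%, the HP1 gene *Cbx5* at 0.60% to 1.68%, and *Suv39h2*, *Kmt5b*, *Kmt5c* and the telomere helicase *Rtel1* between 0.63% and 8.52% in every library.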

How the data were processed

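Blast DNA from 5 mice was bisulfite converted, amplified with a random-primed kit and sequenced on an Illumina NextSeq. Per the labels, the authors used FastQC 0.11.7, Trim Galore 0.4.3, Bismark 0.19.1 and Bowtie2. The methods of the study give non-directional alignment to GRCm38 and removal of duplicates by position. The deposited values are raw counts of methylated and unmethylated calls per CpG cytosine. Positions of all 20383623 autosomal dyads matched the GRCm38 reference. Calls are not labelled molecules, and unconverted mitochondrial cytosines made up 0.807% to 0.989%.

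Calls of both strands were summed per dyad and 5 kb tile, and the level is methylated over all calls. End tiles were compared with interior tiles weighted to the same CpG numbers, in exact classes up to 150 dyads. Library values were compared with exact permutation tests. Tiles and promoters were fitted with edgeR 4.0.16 and limma 3.58.1 in R 4.3.3 at a threshold of 0.05. The edgeR model had a coefficient per library, for methylation and for methylation by genotype. Limma compared the genotypes in the log ratio of methylated to unmethylated calls per library, with 2 added to each count. In edgeR the spread of a tile came wholly from the trend over tiles. The edgeR fit was also run on artificial counts with known changes, which held no difference in genome-wide level between libraries. Genes came from the GENCODE basic annotation of GRCm38 and sequences from the reference and RefSeq. Python 3.11.15 and matplotlib 3.10.9 were used for levels and plots.

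Tiles were named as the 5 with the largest difference of group means in each end and direction, out of those that passed the threshold without overlap of the groups, promoters likewise over both ends, and chromosomes as the 3 highest and 3 lowest at each end. Of the promoters so chosen, 1 is not reported here. The members and lists were chosen with earlier results of these data known. Alternatives were minimums of 10 and 50 calls, thinning to the shallowest library, windows of 1 and 5 Mb, weighting by calls, matching within chromosomes, omission of tiles of unusual coverage, other tests and omission of each library. No batch is named in the labels.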

Additional observations from a re-analysis of the deposited data

How the results depend on the processing

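With 2 and 3 libraries the exact tests could not pass 0.05, so that these results are judged by size and direction. The centromeric excess over matched tiles was above 0 in all 15 alternatives (0.74, weighted by calls, to 1.47 points), and the Tet2 differences were above 0 at both ends in all 13 (3.87 to 8.38 and 4.71 to 9.53). The telomeric deficit turned to 0.969 with a window of 1 Mb and 0.116 with 5 Mb, was -0.03 without chromosome 15 and -1.62 weighted by calls. The telomeric gain relative to matched tiles turned to -0.0743 with 1 Mb. The cause of these changes was not tested. The alternatives without chromosome 15 and with matching on repeat share were chosen after seeing the data.

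Of 255 centromeric and 426 telomeric tiles called in either direction, windows of 1 Mb left 65 and 85 (1.90% and 2.42%), and windows of 5 Mb held 408 and 991 (2.33% and 5.42%), against 3.498% of all tiles. Limma called 29 and 61, and 1 and 1 after centring. Leaving out 1 library gave 6 to 374 and 12 to 526. The 7 promoters called became 79 by the likelihood ratio test (6.49%, against 5.73% of all promoters), 3 by limma, 0 after centring and 0 to 17 without 1 library. Over all promoters limma called 0.422%, and 0.048% after centring. No paired analysis was possible because the groups share no replicate number. Depth of 2.999 to 5.27 calls per dyad limits single CpG-poor tiles.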

Other observations

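The X chromosome was left out of the comparisons above. Its centromeric end (241 tiles with enough calls) was at 63.0% and 57.9% in the Tet2+/+ and 65.9%, 72.1% and 63.8% in the Tet2-/- libraries, its telomeric end (414 tiles) at 67.7%, 62.4%, 71.7%, 75.6% and 67.3%, and its interior (26804 tiles) at 68.2%, 63.1%, 70.2%, 75.1% and 66.1%. The centromeric end of X was below its interior in 5 of 5 libraries, without matching on CpG number. The group means differed by 6.78, 6.50 and 4.82 points (exact permutation p = 0.2, 0.3 and 0.4).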
